A study of Arabidopsis thaliana with 124 samples.

Results

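ANAC102 is a NAC transcription factor of Arabidopsis thaliana, and its genome-wide binding was measured by ChIP-seq with and without the hormone abscisic acid (ABA). The members are the 7625 peaks of its deposited lists, 4793 under ABA and 2832 under the ethanol mock (EtOH), of 326698 peaks in the 42 lists of the series. A peak counted as shared when at least 1 bp of it overlapped a peak of the other ANAC102 list, and as ABA-alone or EtOH-alone otherwise. The series holds 124 samples, which are the libraries of 21 tagged factors and 2 libraries of untagged Col-0 seedlings precipitated with the same antibody as control.

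Both ANAC102 groups were whole Col-0 seedlings, 3 days old and kept in darkness in hydroponic culture, in which recombineering had added a YPet tag to ANAC102. One group received 10 µM ABA for 4 h and the other ethanol alone. Chromatin was fixed with formaldehyde, sheared by sonication and enriched with a polyclonal rabbit antibody raised against GFP, of which YPet is a relative. Each treatment had 2 libraries, as only ZAT6 among the other factors had, and the authors pooled them into 1 list, so no value below carries a replicate error and no test was possible. Whether the libraries came from separate cultures, how many seedlings or lines entered them, and how deeply they were sequenced are not given in the sources used here. Both control libraries are labelled as ABA-treated, and which lists were made against them is not given either. Whole seedlings mix all cell types, and a peak list holds no expression from which to check them.

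NAC proteins form a large plant family that shares a DNA-binding NAM, ATAF and CUC domain. ANAC102 belongs to the ATAF subfamily with ATAF1, ATAF2 and ANAC032, and it is known from work on low-oxygen germination and on the detoxification of reactive carbonyls. ABA is sensed by PYR and PYL receptors, which bind clade A PP2C phosphatases and so release SnRK2 kinases to act on ABF and ABI5-type factors. Stress NAC factors such as RD26 act downstream of ABA, and several others drive leaf senescence.

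The widest peak in both lists lay at the tagged gene itself. Under ABA it ran from 25482704 to 25533167 on chromosome 5 of the build TAIR10, 50464 bp across and over 16 protein-coding genes. Under EtOH it ran from 25482686 to 25533095, a width of 50410 bp. Peak strength is given throughout as the authors' −log10 p of a peak, which ranks peaks within a list, and their fold enrichment over control. The peak at ANAC102 had a −log10 p of 115.2 under ABA and 101.1 under EtOH, rank 2 in both lists. The next widest peaks reached 9842 bp and 9892 bp. At the genes of the other 20 factors no ANAC102 peak of the ABA list was wider than 5477 bp, and the widest of those lay at HB7. A wide peak at the tagged gene was not particular to ANAC102. In their own ABA lists the other factors had one at their own gene, from 7181 bp for HB7 to 63695 bp for ANAC032. The summit of the ANAC102 peak at its own gene lay nearest MUM2, a beta-galactosidase gene of seed mucilage, so neither list placed a summit at ANAC102.

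The EtOH peaks were almost all found again under ABA, and many peaks of the longer ABA list had no EtOH counterpart. Of the EtOH peaks, 2666 of 2832 were shared (94.1%, 95% Wilson interval 93.2 to 94.9%). Of the ABA peaks, 2681 of 4793 were shared (55.9%, 54.5 to 57.3%), which left 2112 ABA-alone and 166 EtOH-alone peaks. These intervals cover counting error only. Shared peaks sat at the same place: over 2757 overlapping pairs the summits were a median of 22 bp apart, and 87.7% of pairs had summits within 200 bp. Most unshared peaks were far from the other list, not just short of touching it. The median gap was 11131.5 bp for ABA-alone peaks, of which 214 had an EtOH peak within 1000 bp, and 5571.5 bp for EtOH-alone peaks, of which 27 had an ABA peak within 1000 bp. The ABA list was 1.69 times as long as the EtOH list, the eighth highest of such ratios among the 21 factors. When the ABA list was limited to its strongest 2832 peaks, 77.2% of those and 78.4% of the EtOH peaks were shared.

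The share found in both treatments followed the strength of the peak. Of the 500 strongest ABA peaks 98.4% were shared, and of those ranked 2001 to 2500 it was 60.4%. For ranks 4001 to 4500, with a −log10 p of 16.92 to 18.86, the share was 17.0%. In the EtOH list 500 of the 500 strongest peaks were shared, and 78.0% of the weakest 332. Of the EtOH peaks with a −log10 p of at least 32, 99.9% overlapped some ABA peak, a threshold chosen for this after seeing the data.

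**Figure D1:**
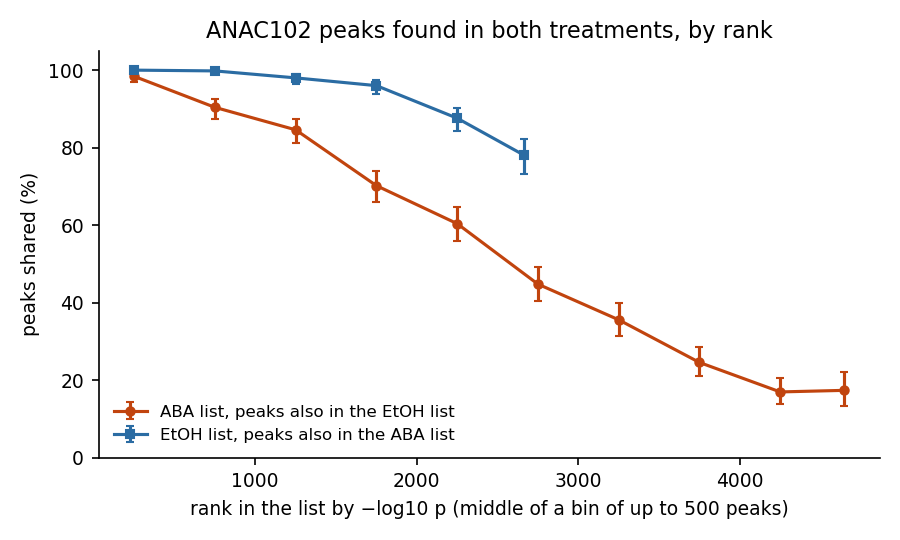
Share of ANAC102 peaks found in both treatments (y axis, %) against the rank of the peak in its own list by −log10 p (x axis), for the ABA list and the EtOH list in bins of up to 500 peaks; bars are 95% Wilson intervals. The share is 98.4% in the first ABA bin and 17.0% for ranks 4001 to 4500, while no EtOH bin lies under 78.0%.

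Unshared peaks were the weaker part of each list. In the ABA list the shared peaks had a median −log10 p of 38.89 (quartiles 27.92 and 56.49) and the ABA-alone peaks 21.25 (18.14 and 26.92). In the same list 93.8% of the ABA-alone peaks lay below the median of the shared ones. Fold enrichment had a median of 2.84 in shared and 2.28 in ABA-alone peaks, and width 1282 bp and 1015 bp. In the EtOH list the median −log10 p was 27.2 for shared and 18.0 for EtOH-alone peaks, of which 97.0% lay below the shared median. The ABA-alone peaks nonetheless reached 82.28, rank 157 of their list, while the strongest EtOH-alone peak reached 33.21, rank 976.

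**Figure D2:**
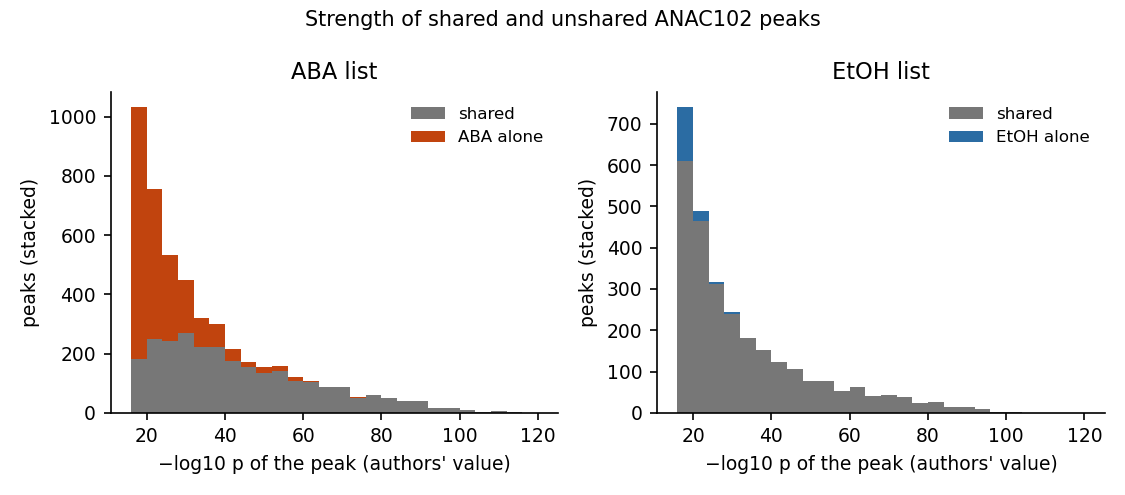
Number of ANAC102 peaks (y axis, stacked) by the authors' −log10 p in steps of 4 (x axis), with the ABA list on the left and the EtOH list on the right. Shared peaks, in grey, make up nearly all of the strong peaks in both lists, and the coloured unshared peaks are mostly near the threshold of 16.

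ABA-alone peaks were placed with respect to genes much as the shared ones were. Of the ABA summits 39.4% were inside a protein-coding gene, 43.8% outside but within 1000 bp of one, and 6.74% more than 2000 bp from any. Inside genes lay 39.8% (37.9 to 41.6%) of the shared and 39.0% (36.9 to 41.1%) of the ABA-alone summits. For EtOH-alone summits it was 42.8% (35.5 to 50.4%). When all ABA summits were moved along the chromosomes by 200 bp the share inside genes stayed between 39.1% and 39.7%, and at 1000 bp it was 58.1% in one direction and 57.0% in the other.

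Summits were assigned to the closest protein-coding gene, up to 2000 bp away. That placed ANAC102 at 4051 of 27432 genes under ABA (14.8%) and at 2461 under EtOH (8.97%). In both treatments it was placed at 2252 genes (8.21%), under ABA alone at 1799 (6.56%) and under EtOH alone at 209 (0.762%). Of the genes placed under EtOH alone, 86 had a peak that was itself shared but whose ABA summit fell nearer another gene or out of range, and the same held for 92 of those placed under ABA alone. At 398 genes there were 2 or more ABA summits, and at most 4. With lists cut to equal length, 601 genes were placed under ABA alone and 577 under EtOH alone. Equal lengths bring these counts close together by construction. The effect of the treatment on the number of genes and that of list length therefore cannot be told apart.

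The strongest shared peaks held genes of the cytoskeleton, ABA signalling, dehydration and transport. The first of the ABA list, also the first of the EtOH list, lay outside but nearest to DIS2 (AT1G30825, chromosome 1, 10957388 to 10960655), a subunit of the actin-nucleating ARP2/3 complex, with a −log10 p of 115.2 under ABA and 103.1 under EtOH. After the peak at the tagged gene came TMAC2 (AT3G02140, chromosome 3, 384370 to 390252), also named AFP4, which encodes an ABI5-binding negative regulator of ABA responses. Its peak had 109.8 under ABA, rank 3, and 79.1 under EtOH, rank 73. LEA14 (AT1G01470, chromosome 1, 171257 to 175066), a late embryogenesis abundant protein gene, had 109.1 under ABA and 97.1 under EtOH and was rank 5 in both lists. ABCB27 (AT5G39040), an ABC transporter, had 109.1 and 93.8, with its summit outside the gene. UGT87A2 (AT2G30140), a UDP-glycosyltransferase, had 108.1 under ABA and 81.0 under EtOH, rank 8 and rank 62, with its summit inside the gene. The other 4 of the first 10 lay at genes for which the reference gives no name, AT5G65980, AT2G33180, AT1G08230 and AT1G70780, between 105.1 and 109.6 under ABA. All 10 also had a peak of ANAC032 and of RD26, the other NAC factors of the series, in both treatments. Under ABA this was not particular to the 10, as ANAC032 met 100% and RD26 99% of the 500 strongest ABA peaks. Nor was it particular to NAC factors, as 16 to 20 of the other 20 factors had an ABA peak at each.

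Some strong ABA peaks were overlapped by no EtOH peak. The strongest lay inside AT4G38330 (chromosome 4, 17952545 to 17955497), with a −log10 p of 82.3 and a fold enrichment of 3.99. It was followed by one inside AT5G66070 (chromosome 5, 26422485 to 26423601) with 76.3. At the latter, 16 of the other 20 factors had a peak under ABA and 0 under EtOH. LTI30 (AT3G50970, chromosome 3, 18940424 to 18942551), a dehydrin gene that dehydration and cold are known to induce, had a peak of 61.1 with its summit inside the gene. ENO1 (AT1G74030), the plastid enolase, had 67.5, and PEX3 (AT1G48635), a peroxisome assembly factor, had 63.9. CSLG2 (AT4G24000), a cellulose synthase-like gene, had 70.3, and AIR3 (AT2G04160), a subtilisin-like protease gene, had 64.0. The remaining 3 of the first 10, at AT4G02930, AT1G10745 and AT4G31860, ranged from 60.8 to 72.2. ANAC032 had an ABA peak at all 10, between 55.5 and 96.3 in its own list, and an EtOH peak at PEX3 with 17.9. RD26 had an ABA peak at all 10 and an EtOH peak at 6 of them, of which that at PEX3 was the strongest with 44.7. Among all 2112 ABA-alone peaks ANAC032 met 92.3% under ABA and 1.14% under EtOH, and RD26 met 92.7% and 63.2%.

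The strongest EtOH-alone peaks were of middle rank. The first lay inside AT1G21830 (chromosome 1, 7659430 to 7662937) with a −log10 p of 33.2, and the tenth, near the sterol methyltransferase gene SMT2 (AT1G20330), had 25.9. Between them were a peak inside TIP2 (AT3G26520), a tonoplast aquaporin gene, with 31.6, and one near the peptide hormone gene CLE14 (AT1G63245) with 30.5. Peaks inside CRK29 (AT4G21410), a receptor-like kinase gene, and near SGR5 (AT2G01940), a zinc finger gene of shoot gravitropism, had 26.9 and 26.3. AT4G29310, AT3G49950 and AT3G19850 had 26.7 to 29.6, and 1 peak had no protein-coding gene within 2000 bp. ANAC032 had a peak under ABA at all 10, with 16.2 to 45.7 in its own list. Under EtOH it had one at all but CLE14, AT4G29310 and CRK29, the strongest with 27.3 at TIP2. RD26 had an EtOH peak at all but TIP2, the strongest with 80.8 at AT3G49950. Under ABA RD26 had none at TIP2, at SGR5 and at the peak without a gene. Among all 166 EtOH-alone peaks ANAC032 met 74.1% under ABA and 13.9% under EtOH, and RD26 met 71.1% and 79.5%.

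Of its own subfamily, ANAC102 was placed at ATAF2 (AT5G08790) alone, 1 of 4 genes. That ABA-alone peak was weak, with a −log10 p of 20.5 and rank 3627, and neither ATAF1 nor ANAC032 was the nearest gene to a summit in either list. With every gene within 2000 bp of a summit counted, 2 of the 4 were reached under ABA, against 25.3% of all protein-coding genes. Of 18 other NAC genes of stress and senescence 12 were placed under ABA (66.7%) and 8 under EtOH (44.4%), with 7 in both. The shares were 14.8% and 8.97% for all protein-coding genes, and 30.8% and 23.1% for 13 housekeeping genes counted for comparison. VNI2, a repressor of vessel formation that also delays senescence, had 72.7 under ABA and 52.3 under EtOH. ORS1, a senescence promoter, had 67.2 and 65.5, rank 407 of the ABA list and rank 193 of the EtOH list. ANAC055, which acts in jasmonate and drought responses, had 57.6 and 36.6. ORE1, a central activator of leaf senescence, had 49.7 and 32.1, and its strongest ABA peak was ABA-alone while another was shared. RD26 was placed under ABA alone with 46.0, though its peak overlapped an EtOH peak, and ANAC047 had an ABA-alone peak of 34.8. ANAC046, which activates chlorophyll breakdown genes, had an EtOH-alone peak of 21.4.

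Genes of senescence, chlorophyll breakdown and darkness were placed in 17 of 27 cases under ABA and in 12 under EtOH, and the 12 were in both. These were 63.0% and 44.4%, against 14.8% and 8.97% of all protein-coding genes and 30.8% and 23.1% of 13 housekeeping genes. DIN2, a dark-induced beta-glucosidase, had a −log10 p of 97.3 under ABA and 84.1 under EtOH. SAG21, a small LEA-like protein gene, had 72.7 and 60.6, and SEN1, a sulfur carrier-like gene used as a marker of darkness and senescence, had 68.1 and 65.8. WRKY6, a senescence-associated transcription factor, had 63.1 under ABA, rank 499, and 22.5 under EtOH, rank 1776. NYE1, which removes magnesium from chlorophyll a, was placed under ABA alone with 35.7, and SAG12, a cysteine protease marker of senescence, with 20.5. The seedlings were kept in the dark in both treatments.

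Detoxification genes were placed in 12 of 33 cases under ABA (36.4%) and in 10 under EtOH (30.3%), and 10 were in both. All protein-coding genes had shares of 14.8% and 8.97%, and 13 housekeeping genes 30.8% and 23.1%. ALDH7B4, an aldehyde dehydrogenase of stress, had one of the strongest peaks of all, inside the gene, with 104.1 under ABA (rank 12) and 93.8 under EtOH (rank 11). AKR4C8, an aldo-keto reductase of reactive carbonyls, had 101.8 and 80.6. The glutathione S-transferases GSTU24 and GSTU19 had 71.4 and 66.1, and 65.4 and 28.1, under ABA and EtOH respectively. The ABA-alone members were ABCC3, a vacuolar transporter of conjugates, with 40.3 and GSTF8 with 37.2. SCL14 and its partners TGA2, TGA5 and TGA6, which drive xenobiotic-inducible genes, were the nearest gene to no summit in either list.

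Of 23 low-oxygen response genes 6 were placed under ABA (26.1%) and 5 under EtOH (21.7%). These shares were above the 14.8% and 8.97% of all protein-coding genes but below the 30.8% and 23.1% of 13 housekeeping genes. The low-oxygen genes placed included enzymes of ethanol fermentation. PDC1, pyruvate decarboxylase, had a −log10 p of 59.5 under ABA and 30.0 under EtOH, and ADH1, alcohol dehydrogenase, had 55.4 and 16.4. The ADH1 peak ranked 727 of 4793 under ABA and 2729 of 2832 under EtOH, near the end of that list. LBD41, a LOB-domain factor, had 59.2 and 54.1, and SRO5, an oxidative stress regulator, had 44.4 and 20.9. SUS1, a sucrose synthase, was placed under ABA alone with 20.7. The ERF-VII factors of oxygen sensing, RAP2.2, RAP2.3, RAP2.12, HRE1 and HRE2, were the nearest gene to no summit in either list.

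ANAC102 was placed at some of the receptor, phosphatase and kinase genes of the ABA pathway. For comparison, the shares under ABA and EtOH were 14.8% and 8.97% of all protein-coding genes, and 30.8% and 23.1% of 13 housekeeping genes. Of the 14 receptor genes 5 were placed under ABA (35.7%) and 3 under EtOH (21.4%). PYL5 had 52.1 under ABA, and its peak overlapped an EtOH peak whose summit was not placed at it. PYL9 had 33.4 and 24.2, PYL4 had 19.4 and 24.2, and PYL8 had an ABA-alone peak of 21.6. Of the 9 clade A PP2C genes 7 were placed under ABA (77.8%) and 4 under EtOH (44.4%). HAI1, the strongest, had a peak inside the gene with 92.2 under ABA (rank 52) and 84.1 under EtOH (rank 42). HAI2 had 79.3 and 39.1, and AHG1, which acts in germination, had 58.1 and 49.7. HAB1 had 65.8 under ABA in a peak that was shared, and HAI3 had an ABA-alone peak of 26.5. ABI1 and ABI2, the founding members, were the nearest gene to no summit, but all 9 genes had an ABA summit within 2000 bp. Of all protein-coding genes, 25.3% had an ABA summit within that distance. Of 10 SnRK2 kinase genes 3 were placed under ABA (30%) and 1 under EtOH (10%). SNRK2.10 had 73.4 under ABA and 30.3 under EtOH, SNRK2.6, the guard cell kinase also called OST1, had 37.7 under ABA alone, and SNRK2.8 had 18.0 under ABA alone.

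The ABI and AFP regulators were placed in 5 of 7 cases under ABA (71.4%) and in 4 under EtOH (57.1%). All protein-coding genes had shares of 14.8% and 8.97%, and 13 housekeeping genes 30.8% and 23.1%. Besides AFP4, the seed regulator ABI3 had 69.9 and 55.7, AFP1 had 64.7 and 28.0, and AFP3 had 48.7 and 25.9. AFP2 was placed under ABA alone with 38.6. Genes of ABA synthesis, breakdown and transport were placed in 5 of 16 cases under ABA (31.25%) and 2 under EtOH (12.5%). In this list 4 of the 5 were under ABA alone. They were the ABA 8'-hydroxylases CYP707A2 with 39.4 and CYP707A1 with 35.7, the zeaxanthin epoxidase ABA1 with 35.6, and NCED3, which catalyses a limiting step of stress-induced synthesis, with 18.3. NCED3 and the SnRK2, ABI and AFP members outside the naming rule are named here because few members were placed. ABA3, a molybdenum cofactor sulfurase, was in both lists with 36.9 and 26.9, and CYP707A3 was placed under EtOH alone with 21.1 in a peak that was shared.

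Dehydration response genes were placed in 7 of 22 cases under ABA (31.8%) and 4 under EtOH (18.2%). The shares were 14.8% and 8.97% for all protein-coding genes, and 30.8% and 23.1% for 13 housekeeping genes. After LTI30 came COR47, a dehydrin gene, with 53.4 and 27.5, ERD1, a Clp protease regulatory subunit, with 35.2 and 28.5, and GOLS2, galactinol synthase, with 33.0 and 18.1. ERD14 was placed under ABA alone with 24.9 and ERD10 under EtOH alone with 33.3, both in shared peaks. RD29A, RAB18, KIN1 and COR15A, common markers of the ABA and cold response, were the nearest gene to no summit in either list. With every gene within 2000 bp of a summit counted, 10 dehydration genes were reached under ABA and 5 under EtOH. Of all protein-coding genes it was then 25.3% and 15.5%. Outside the naming rule, RD29B and RD20 were placed under ABA alone with 18.7 and 16.6, near the threshold of 16. The 4 CBF genes were all placed in both treatments, among 7 genes of the CBF and DREB2 list, which holds regulators of cold and dehydration responses. They made up 57.1% of that list in each treatment. CBF1 had 58.6 and 50.7, CBF3 had 30.8 and 28.0, CBF4 had 29.3 and 26.0, and CBF2 had 28.7 and 16.3.

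Among the genes of the 21 factors of the series, ANAC102 was placed at 15 under ABA (71.4%) and at 10 under EtOH (47.6%). The shares of all protein-coding genes were 14.8% and 8.97%. AT5G04760, which the series treats as one of its factors, had 94.8 under ABA (rank 45) and 95.1 under EtOH (rank 7). ZAT6, a zinc finger factor, had 70.4 and 31.2, MYB44, a factor of stomatal closure, had 69.0 and 45.5, and HB7, an ABA-induced homeodomain factor, had 67.54 and 31.95. ABF4, one of the bZIP factors of ABA signalling, was placed under ABA alone with 28.4, and ABF1, GBF3, NFYC2, DREB2A and ANAC032 were placed in neither list. DREB2A was nonetheless overlapped by an ANAC102 peak in both lists, with 30.8 under ABA and 20.1 under EtOH, whose summit was not placed at it.

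Other hormone and light genes were also reached. Jasmonate genes were placed in 8 of 22 cases under ABA (36.4%) and 7 under EtOH (31.8%), mostly JAZ repressors. All protein-coding genes had shares of 14.8% and 8.97%, and 13 housekeeping genes 30.8% and 23.1%. JAZ1 had 67.9 and 43.8, JAZ5 had 50.7 and 47.6, JAZ2 had 39.6 and 46.3, and JAZ10 had 39.3 and 34.4. The lipoxygenase gene LOX3 had an ABA-alone peak of 25.1 and LOX2 an EtOH-alone peak of 22.2, while JAZ12 had 23.7 under ABA alone and JAZ9 18.1 under EtOH alone. MYC2 and COI1 were the nearest gene to no summit in either list. Of 10 brassinosteroid genes 6 were placed under ABA (60%) and 5 under EtOH (50%). DWF4, a limiting enzyme of synthesis, had 64.2 and 52.9, BIN2, the inhibitory kinase, had 50.2 and 34.2, and SOB7, an inactivating enzyme, had 47.3 and 17.0. BES1 had an ABA-alone peak of 21.2 and the receptor gene BRI1 an EtOH-alone peak of 18.6. Of 15 light signalling genes 5 were placed (33.3%), all in both treatments. COP1, the ubiquitin ligase that represses light responses in the dark, had 52.9 and 16.7, PIF5 had 44.2 and 42.4, HY5 had 39.1 and 35.7, and PIF3 had 28.7 and 17.7.

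As lists for comparison, seed storage and embryo genes and housekeeping genes were counted. None of the 10 seed genes was placed as the nearest gene. Within 2000 bp of a summit lay 2 of them in each treatment, against 25.3% of all genes under ABA and 15.5% under EtOH. Of 13 housekeeping genes 4 were placed under ABA and 3 under EtOH. UBQ10, a polyubiquitin gene, had 76.5 and 65.6, above most members of the stress lists. ACT7 had 36.6 and 25.4, UBQ11 had 34.7 and 23.0, and GAPC1 had 19.2 under ABA alone. The housekeeping share under ABA, 30.8%, exceeded the 14.8% of all genes, as did those of the other 16 lists with a member placed. All lists are short and made of well-studied genes, so a share above that of all genes was not particular to any of them.

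The higher counts under ABA in these lists did not all hold with lists of equal length. As reported, 15 of the 18 gene lists had more members placed under ABA than under EtOH, 3 had equal numbers and 0 had more under EtOH. With equal lengths 5 had more under ABA, 8 were equal and 5 had more under EtOH. The 5 that stayed higher under ABA were the stress and senescence NAC genes (11 and 8), the PP2C phosphatases (5 and 4), the SnRK2 kinases (2 and 1), the genes of ABA synthesis, breakdown and transport (4 and 2) and the ABI and AFP regulators (5 and 4). The difference was gone for dehydration genes (4 and 4), detoxification genes (10 and 10) and the genes of the 21 factors (10 and 10), and for ATAF and housekeeping genes. It turned for ABA receptors (2 and 3), senescence genes (11 and 12), low-oxygen genes (4 and 5), jasmonate genes (5 and 7) and brassinosteroid genes (3 and 5).

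**Figure D3:**
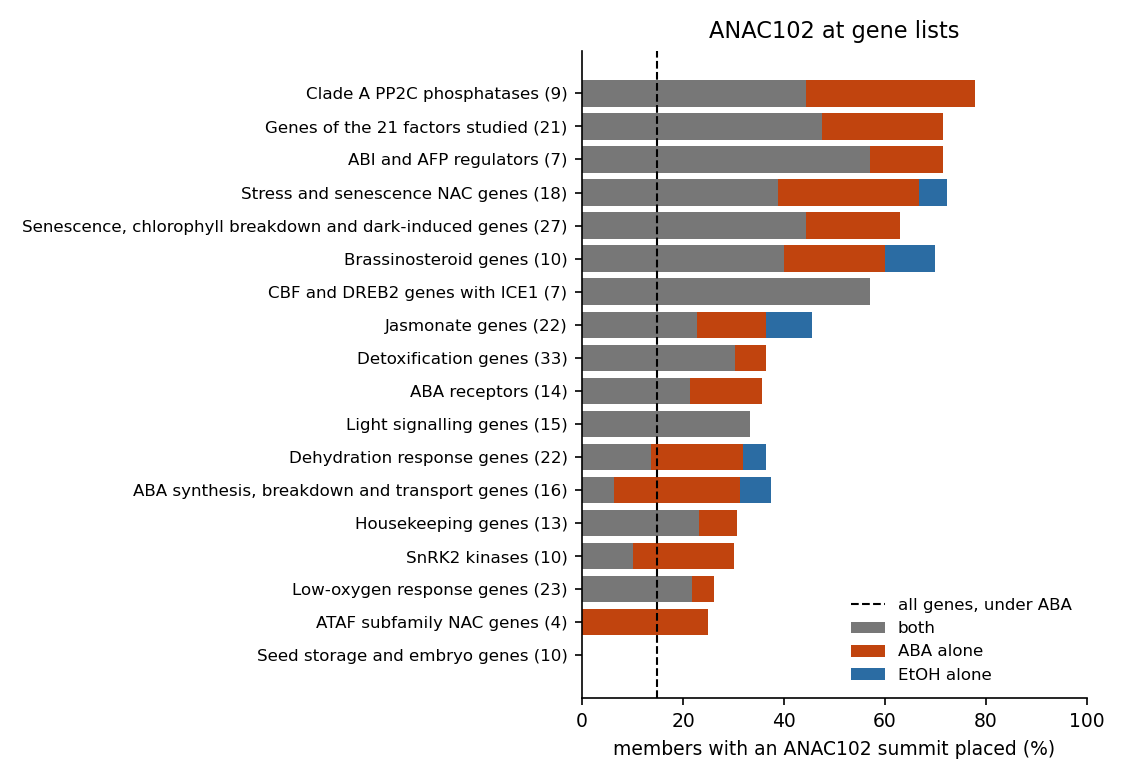
Share of the members of each gene list with an ANAC102 summit placed (x axis, %), split into both treatments, ABA alone and EtOH alone; the number of genes in each list is in parentheses. The dashed line is the 14.8% of all protein-coding genes placed under ABA, and 17 of the 18 lists reach beyond it.

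Peaks of ANAC032 and RD26 met the strongest ANAC102 peaks more often than those of other factors did. Lists of all factors may share the Col-0 control, so these overlaps are descriptions. With the 1000 strongest peaks of each list under ABA, 73.5% (70.7 to 76.1%) of the ANAC102 peaks were overlapped by ANAC032 and 45.9% (42.8 to 49.0%) by RD26. For the 18 factors that are not NAC proteins the range was 3.0 to 24.8%, with a median of 15.3% and ZAT6 the highest. Under EtOH RD26 overlapped 58.9% and ANAC032 58.6%, with a range of 0.2 to 22.2% for the 18 others. The EtOH list of ANAC032 holds only 801 peaks, and those of DREB2A and HSFA6A, at the low end, hold 15 and 32. FBH3, lowest under ABA, has 194 peaks there.

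**Figure D4:**
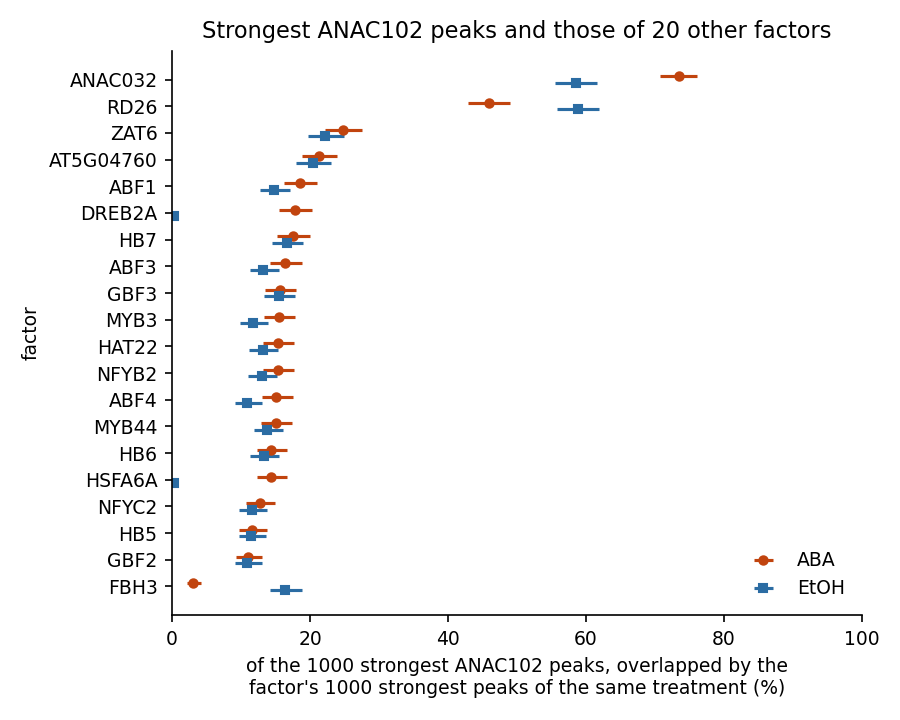
Share of the 1000 strongest ANAC102 peaks overlapped by the 1000 strongest peaks of each of the other 20 factors in the same treatment (x axis, %), under ABA and EtOH; bars are 95% Wilson intervals. ANAC032 at 73.5% and RD26 at 45.9% under ABA stand to the right of the other factors, which reach 24.8%.

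With full lists, 95.4% of ANAC102 ABA peaks met an ANAC032 peak, which was 54.3% of the ANAC032 list, and 94.3% met an RD26 peak, 37.9% of that list. Under EtOH 90.7% of the ANAC102 peaks met RD26 (35.2% of its list) and 26.8% met ANAC032 (94.4% of its list). The ABA-alone peaks of ANAC102 differed in which lists reached them under EtOH. RD26 had an EtOH peak at 63.2% of them (61.1 to 65.2%), ANAC032 at 1.14% (0.765 to 1.69%), and ZAT6 at 41.9%. The EtOH lists of RD26, ANAC032 and ZAT6 differ in length, with 7651, 801 and 5146 peaks. How far list length sets these shares was not tested. At shared ABA peaks RD26 had an EtOH peak in 91.2% and ANAC032 in 27.6%. Under ABA RD26 and ANAC032 met 92.7% and 92.3% of the ABA-alone peaks. The 166 EtOH-alone peaks were met by RD26 under EtOH in 79.5% (72.7 to 85.0%) and by ANAC032 under ABA in 74.1%.

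Many ANAC102 peaks lay at regions with peaks of many factors. In the ABA list 78.2% of peaks were met by at least 10 of the other 20 factors under ABA, and in the EtOH list 60.7% under EtOH. With a −log10 p of at least 32 in all lists these shares were 63.8% and 34.8%. Among the ABA peaks the number of other factors under ABA had a median of 16 at shared and 15 at ABA-alone peaks. In the EtOH lists of the other factors the medians were 12 and 9. At 154 of the 2112 ABA-alone peaks (7.29%) no other factor had an EtOH peak, against 40 of the 2681 shared ABA peaks. The ABA-alone peaks were also weaker, with a median −log10 p of 21.25 against 38.89, and narrower, with 1015 bp against 1282 bp. How far strength and width set these numbers was not tested.

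**Figure D5:**
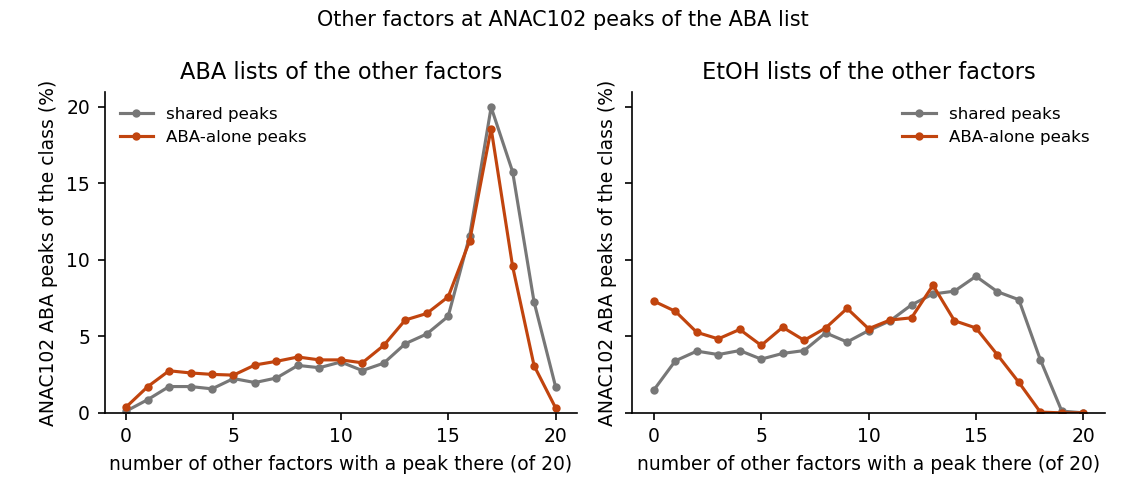
Share of the shared and of the ABA-alone peaks of ANAC102 in its ABA list (y axis, %) by the number of other factors with a peak there (x axis), for the ABA lists on the left and the EtOH lists on the right. The classes have medians of 16 and 15 other factors on the left and of 12 and 9 on the right.

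Few peaks were met by NAC factors alone. At 94 ABA peaks (1.96%) no list but those of ANAC032 and RD26 had a peak, and 56.4% (46.3 to 66.0%) of their summits were inside genes, against 39.4% of all ABA summits. Their median −log10 p was 25.7. The strongest, named after their values were seen, was inside XDH1 (AT4G34890, chromosome 4, 16624427 to 16625181), a xanthine dehydrogenase of purine breakdown, with 78.6 under ABA and 57.6 under EtOH. BETA-OHASE 2 (AT5G52570), a beta-carotene hydroxylase, had 62.9 and 49.6, and GSTU4 (AT2G29460), a glutathione S-transferase, had 60.9 and 23.7. RLP7 (AT1G47890), a receptor-like protein, had 69.1 and 62.5. The others of the first 8 lay at AT2G34360, AT1G52370, AT4G05490 and AT1G60730, between 59.5 and 76.5 under ABA. At 39 ABA peaks, a set also chosen after values were seen, ANAC102 was without either NAC relative in any list. Under ABA these 39 had a median of 18.3 and a highest value of 26.8, near MYB30 (AT3G28910), a factor of hypersensitive cell death. That peak overlapped an EtOH peak of 41.5, rank 658 of its list. At 10 ABA peaks, likewise chosen afterwards, no other list of the series had a peak, and the strongest of those, at AT4G11160, had 25.7.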

How the data were processed

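ChIP-seq peak lists in narrowPeak form were used as deposited. Per the submitters' processing notes the tools were MACS2 2.0.10 and Bowtie 0.12.7 and the build was TAIR10, with no step given for each. Per the file headers and peak names, the authors pooled the libraries of a group into 1 list, called it optimal and set a −log10 p of 16. The fold enrichment (a ratio) and the −log10 p of each peak are the authors' values. The score column, as deposited, is 10 times the −log10 p without decimals and was not used. The authors' column for q-values is a placeholder throughout. Without read counts in these lists, the depth behind them is unknown. No per-sample column was left unused.

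With python 3.11.15, numpy 2.4.6, pandas 2.3.3 and scipy 1.17.1, peaks were overlapped by at least 1 bp, ranked by −log10 p, and their summits placed at the nearest of 27432 protein-coding genes within 2000 bp, 0 inside a gene. Genes come from an NCBI table of TAIR10.1 without strands, so start sites and gene coordinates were left out. Peak coordinates are 1-based on TAIR10. All 281 entries of 18 gene lists matched by locus, 272 with the printed name in the table. Overlap and placement were tested on simulated data, with 2000 of 2000 overlaps and 667 of 667 placements right. Named were the genes at the 10 strongest peaks of each class, ANAC102, its subfamily, and up to 4 members of each list with the strongest peak plus up to 2 placed in 1 treatment alone. The members, the lists and the naming rule were chosen with earlier results of these data known. The motif search that had been planned was not run, since no genome was used here.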

Additional observations from a re-analysis of the deposited data

How the results depend on the processing

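No paired analysis was possible because the authors pooled the libraries of each treatment into 1 list, and for the same reason no replicate could be left out. The share of EtOH peaks shared was 81.2% with 50% reciprocal overlap, 85.4% with summits within 200 bp, 95.3% with a −log10 p of at least 32 in both lists, 78.4% with lists of equal length and 92.3% without peaks over 5000 bp. Against the whole ABA list, EtOH peaks of at least 32 were shared in 99.9%, an alternative chosen after seeing the data. The share of ABA peaks shared was 48.0%, 50.4%, 49.0% and 77.2% under the first 4 of these, in that order. With a −log10 p of at least 32, 871 genes were placed in both, 939 under ABA alone and 65 under EtOH alone. With lists of equal length, 601 were under ABA alone and 577 under EtOH alone. With every gene within 2000 bp, 3995 were in both and 2932 under ABA alone. Overlap of ANAC102 peaks by ANAC032 was 74.8% under ABA and 22.4% under EtOH with 50% reciprocal overlap, and by RD26 74.9% and 71.8%. With the top 1000 peaks it was 73.5% and 58.6% for ANAC032, and 45.9% and 58.9% for RD26. A limit of 1000 bp from summit to gene kept each of the 3 gene counts within 1.5 times. The cause of the shifts was not tested, apart from the fewer peaks that a higher threshold or a shorter list leaves. Depth, the control behind each list and the spread between libraries are not known, so the length of a list limits every share.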

Other observations

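Whole gene families, picked by name after the data were seen, were also counted against the 14.8% of all protein-coding genes placed under ABA and the 8.97% under EtOH. Of 64 UDP-glycosyltransferase (UGT) genes 25 were placed under ABA (39.1%) and 17 under EtOH (26.6%). After UGT87A2, the strongest was UGT73B3 with a −log10 p of 86.0 under ABA. That peak was shared, but no EtOH summit was placed at the gene. Next were UGT76B1, which acts on immune-signalling molecules, with 84.1 and 35.8, and UGT74D1 with 82.8 and 61.8. Of 102 NAC genes 28 were placed under ABA (27.5%) and 19 under EtOH (18.6%), led by NAC001 with 84.1 and 70.1 and NAC084 with 83.5 and 78.4. Of 72 WRKY genes 21 were placed under ABA (29.2%) and 15 under EtOH (20.8%), led by WRKY11 with 90.3 and 60.6 and WRKY22 with 74.5 and 59.1, both regulators of immune responses.

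Of 234 cytochrome P450 genes 41 were placed under ABA (17.5%) and 26 under EtOH (11.1%), led by CYP71B23 with 86.6 and 87.0. Of 108 ABC transporter genes 26 were placed under ABA (24.1%) and 18 under EtOH (16.7%), and ABCC4 had 81.7 and 68.1. Of 42 tau and phi glutathione S-transferase genes 9 were placed under ABA and 8 under EtOH, led by GSTU9 with 77.6 and 22.3. Aldehyde dehydrogenase genes were placed in 5 of 14 cases under ABA and 4 under EtOH. Heat shock factor genes were placed in 7 of 21 cases under ABA and 4 under EtOH, and the strongest of these peaks, at HSFC1, had 35.2 under ABA. Members of 1 family can lie side by side in the genome, so they are not independent counts.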
